A study of Mus musculus with 8 samples.

Results

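The genes examined here are direct transcriptional targets of the tumour suppressor p53, measured in mouse embryonic stem (ES) cells on Illumina bead arrays. The list held 9 genes, Trp53 itself and 8 targets, and a gene was included through every probe that the platform annotation assigns to it. Of these, 6 genes (Cdkn1a, Ccng1, Mdm2, Phlda3, Zmat3 and Trp53inp1) were measured by 14 probes, out of 8733 genes and 12932 probes tested. The annotation used here named no probe for Trp53, Bax or Btg2, and these 3 genes were not analysed here. All 14 probes were detected on all 8 arrays, so no filter on low values touched them.

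p53 is a transcription factor that is stabilised after DNA damage and other stress, and it then switches on genes that stop the cell cycle, repair DNA or start apoptosis. One of its targets, Mdm2, encodes the ubiquitin ligase that marks p53 for degradation, which closes a negative feedback loop. ES cells are known for a short G1 phase and low levels of the cell cycle inhibitor p21, the product of Cdkn1a, whereas embryonic fibroblasts, which are often used as feeder cells under ES cells, show a robust p21 response.

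There were 4 groups, each a pair of arrays given here in the order replicate 1, replicate 2, and all cells came from the B6D2F1 hybrid strain. Normal ES cells were compared with parthenogenetic ES cells, which derive from oocytes and carry no paternal genome. Of the other groups, 1 was labelled as parthenogenetic cells overexpressing Igf2 and 1 as parthenogenetic cells with lowered expression of H19; both are called by their label here. Both modified lines and the unmodified parthenogenetic line thus lack a paternal genome. The labels do not give the vector, the number of clones, or the use of feeder cells, and each modification is carried by cells of 1 label, so line and modification cannot be told apart. The design text calls the replicates biological without naming separate cultures. Each p-value hence sets a difference only against the spread between arrays of a group, pooled over all groups in the fit. That spread may be technical.

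The labels were checked against the targeted genes and against marker genes. Igf2 read 15.61 and 15.49 (log2) for the Igf2-labelled pair beside 15.58 and 15.62 for the parthenogenetic pair. The difference was -0.05 (SE 0.55, adjusted p = 0.992, limma), so the probe did not bear out the label. It read close to the brightest listed gene, Dppa5a, at a mean of 15.97, so a further rise might hardly show. Igf2 read 14.98 and 14.94 for the H19-labelled pair, and 15.62 and 13.63 for the normal pair. Fibroblast markers were also low on the H19-labelled arrays and normal replicate 2. Their part in the Igf2 level was not tested. No probe carried the name H19, whose level was not analysed here. All 18 measured ES cell markers were detected on all 8 arrays. Of 30 fibroblast markers, 29 were detected on all 8 arrays as well. The mean log2 level of all 30 was 11.88 and 10.64 for the normal pair, 11.81 and 11.83 for the parthenogenetic pair, 11.60 and 11.62 for the Igf2-labelled pair and 11.06 and 11.07 for the H19-labelled pair. Their summed level on the linear scale was 55.9% and 57.5% of the highest array on the H19-labelled arrays and 44% on normal replicate 2, against 85.7% to 100% on the 5 other arrays. In these bulk samples, fewer cells of a type and less RNA per cell cannot be told apart.

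The normal arrays stood apart from each other. At 7.94% of the probes tested the gap between them exceeded 1 (log2), against 0.155% to 0.162% in each of the other groups. All groups shared 1 estimate of the spread in the fit of all 8 arrays, and the changes of the members between the other groups are therefore also given from a fit without both normal arrays.

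The sequences before the transcription start show where p53 half-sites lie in some of these genes. In the RefSeq promoter table (GRCm38.p6), 7 of the 9 listed genes had a window of 250 bases before to 50 bases after a start, Cdkn1a having 2 such windows. The p53 half-site, a motif of 10 bases that reads the same class of letters on both strands, occurred in 8.36% of the 32851 windows. It has, in order, 3 purines, C, A or T, A or T, G and 3 pyrimidines. Among the genes measured on the arrays it occurred in those of Cdkn1a, Ccng1 and Mdm2. The following stretches are shown because they hold the half-sites of measured genes; they run 5′ to 3′ on the strand of the gene, and capitals mark the half-sites and, in Cdkn1a, also the copies of ACATGT.
Cdkn1a, upstream start, chr17:29090859-29090978, + strand: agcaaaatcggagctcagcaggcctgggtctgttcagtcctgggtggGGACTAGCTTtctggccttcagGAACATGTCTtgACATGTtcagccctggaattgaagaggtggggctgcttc
Ccng1, chr11:40755442-40755491, - strand: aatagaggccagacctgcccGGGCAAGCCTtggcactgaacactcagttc
Mdm2, chr10:117710915-117710964, - strand: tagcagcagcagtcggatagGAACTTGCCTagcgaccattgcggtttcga

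The upstream window of Cdkn1a held 2 half-sites, GGACTAGCTT and GAACATGTCT, whose first bases lie 73 and 51 bases before the start. A pair of half-sites no more than 13 bases apart occurred in 24 windows, 0.0731% of all. The same window held 2 copies of ACATGT, a run that is its own reverse complement, one of them inside the second half-site; 0.329% of windows held 2 or more, and this search, like the count of the 3 lowest arrays given further on, was chosen after the data were seen. The other window of Cdkn1a and that of Phlda3 held no half-site. TATAAA, searched on both strands, was in 13.6% of windows and in none of those of the measured genes. These matches describe letters in a short window and say nothing of binding in these cells.

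Cdkn1a encodes p21, an inhibitor of cyclin-dependent kinases that arrests the cell cycle in G1. Its brightest probe was 13.92 and 12.95 for the normal pair, 13.92 and 13.84 for the parthenogenetic pair, 13.82 and 13.78 for the Igf2-labelled pair and 13.16 and 13.16 for the H19-labelled pair (log2 normalised intensity). The H19-labelled arrays and normal replicate 2 were low, and the 5 others lay within a narrow band. The group means ran in the order parthenogenetic, Igf2-labelled, normal, H19-labelled at 13.88, 13.80, 13.44 and 13.16. Parthenogenetic and Igf2-labelled arrays did not overlap but differed by only 0.08, and the normal arrays spanned all of the others.

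On the H19-labelled arrays Cdkn1a was 0.72 lower than in parthenogenetic ES cells on its brightest probe, which did not pass in the fit of all 8 arrays (SE 0.28, adjusted p = 0.192, limma). In the fit without both normal arrays it fell by the same 0.72, to 60.7% of the parthenogenetic level (SE 0.07, adjusted p = 0.00105, limma). The other probes of the gene gave -0.73 and -0.77, so the 3 probes lay within 0.05 of each other. Both fell in the fit without the normal arrays (adjusted p = 0.00146 and 0.00112, limma). In the same comparison 30 of 30 fibroblast markers were lower, their median being -0.81, and their part in the result was not tested.

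**Figure D1:**
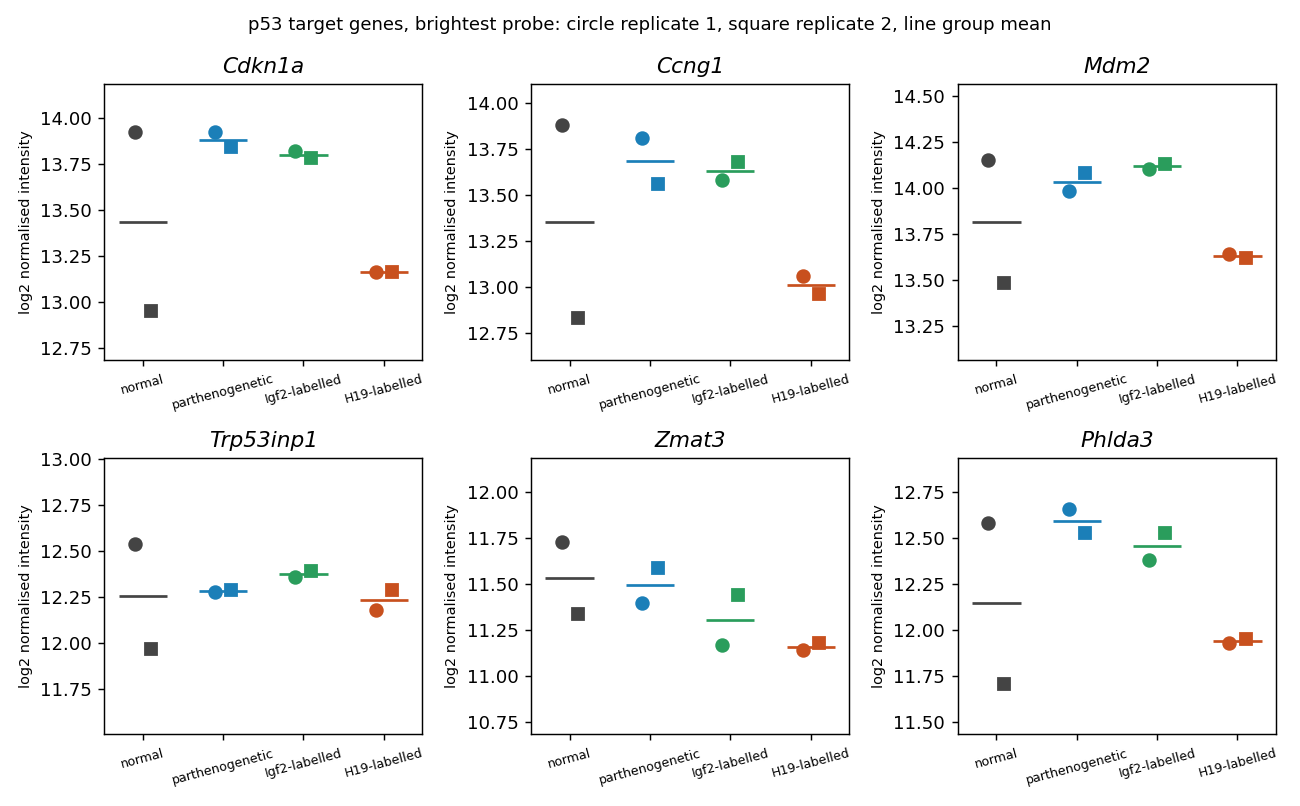
Level of the 6 measured p53 target genes on each array, by the brightest probe of each (y axis, log2 normalised intensity, the same span of 1.5 in every panel; circles are replicate 1, squares replicate 2, lines the mean of the 2 arrays). Cdkn1a, Ccng1, Mdm2 and Phlda3 were lowest on normal replicate 2 and next lowest on the 2 H19-labelled arrays, whereas Trp53inp1 and Zmat3 varied less between groups.

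Phlda3, whose pleckstrin-homology protein restrains AKT signalling, had the same 3 low arrays as Cdkn1a. Its brightest probe was 12.58 and 11.71 for the normal pair, 12.66 and 12.53 for the parthenogenetic pair, 12.38 and 12.53 for the Igf2-labelled pair and 11.93 and 11.95 for the H19-labelled pair. The H19-labelled arrays lay below both other parthenogenetic groups, while those 2 groups touched at 12.53. The difference between H19-labelled and parthenogenetic arrays was -0.65 (SE 0.26, adjusted p = 0.197, limma) and passed in the fit without the normal arrays (SE 0.09, adjusted p = 0.00264). The other probe of Phlda3 gave -0.81 (adjusted p = 0.164, and 8.64e-04 without the normal arrays, limma). It was also the member probe with the widest gap between Igf2-labelled and parthenogenetic arrays, -0.27, which did not pass in either fit (adjusted p = 0.879 and 0.0744, limma).

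Ccng1 encodes cyclin G1, a p53-induced partner of protein phosphatase 2A. Its brightest probe was 13.88 and 12.83 for the normal pair, 13.81 and 13.56 for the parthenogenetic pair, 13.58 and 13.68 for the Igf2-labelled pair and 13.06 and 12.96 for the H19-labelled pair. The difference between H19-labelled and parthenogenetic arrays was -0.68 (SE 0.31, adjusted p = 0.249, limma), and without the normal arrays it passed (SE 0.10, adjusted p = 0.00434). The probes of Ccng1 disagreed in size: the other probes gave -0.20 and -0.08, and neither passed in either fit (adjusted p = 0.613 and 0.785, and 0.103 and 0.426 without the normal arrays, limma). The change of Ccng1 therefore rests on 1 probe of 3.

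Mdm2, the p53 ubiquitin ligase, was low on the same 3 arrays, though only its brightest probe was lowest on normal replicate 2 and the other probes were lowest on an H19-labelled array. The brightest probe was 14.15 and 13.48 for the normal pair, 13.98 and 14.08 for the parthenogenetic pair, 14.10 and 14.13 for the Igf2-labelled pair and 13.64 and 13.62 for the H19-labelled pair. The H19-labelled arrays lay below every parthenogenetic and Igf2-labelled array and above normal replicate 2. The difference between H19-labelled and parthenogenetic arrays was -0.40 (SE 0.21, adjusted p = 0.297, limma), and without the normal arrays it passed (SE 0.07, adjusted p = 0.00852). The other probes both gave -0.42 (adjusted p = 0.339 and 0.119, and 0.0161 and 0.0271 without the normal arrays, limma). The dimmest of them had an intensity of 274 to 354 units, against 11786 to 19752 for the brightest.

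Zmat3 and Trp53inp1 showed smaller differences. Zmat3, an RNA-binding zinc finger gene, had 1 probe, which was 11.73 and 11.34 for the normal pair, 11.40 and 11.59 for the parthenogenetic pair, 11.17 and 11.44 for the Igf2-labelled pair and 11.14 and 11.18 for the H19-labelled pair. The change between H19-labelled and parthenogenetic arrays did not pass in either fit (-0.34, SE 0.17, adjusted p = 0.287, and 0.0677 without the normal arrays, limma). It passed narrowly in a fit of only these 2 groups (adjusted p = 0.046, limma), where 31.2% of all probes passed. The H19-labelled and Igf2-labelled arrays overlapped, and normal replicate 2 did not fall below the H19-labelled arrays. Zmat3 was the 1 member whose normal replicate 2 lay inside the range of the parthenogenetic and Igf2-labelled arrays.

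Trp53inp1, a gene of apoptosis and autophagy induced by p53, was almost level across the parthenogenetic groups. Its brightest probe was 12.54 and 11.97 for the normal pair, 12.28 and 12.29 for the parthenogenetic pair, 12.36 and 12.39 for the Igf2-labelled pair and 12.18 and 12.29 for the H19-labelled pair. The H19-labelled arrays differed from parthenogenetic ES cells by -0.05 (SE 0.18, adjusted p = 0.897, and 0.646 without the normal arrays, limma), less than the gap of 0.11 between the H19-labelled arrays. The other probe gave -0.19 and did not pass in either fit (adjusted p = 0.717 and 0.207, limma).

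**Figure D2:**
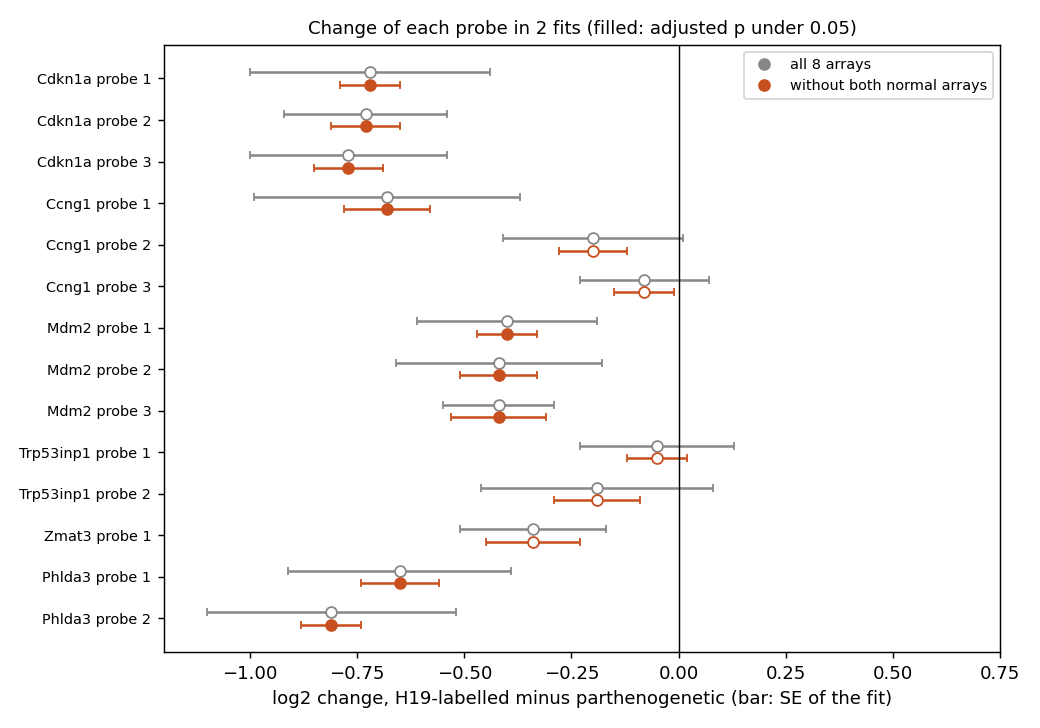
Log2 change between H19-labelled and parthenogenetic arrays for each of the 14 probes (x axis; bars are the SE of the fit), in the fit of all 8 arrays (grey) and in the fit without both normal arrays (orange), with filled points for an adjusted p under 0.05. The changes are the same in both fits and the SE is smaller for all 14 probes without the normal arrays, where the probes of Cdkn1a, Mdm2 and Phlda3 and the brightest probe of Ccng1 passed.

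Counted over the members, 0 of 6 genes and 0 of 14 probes passed for H19-labelled against parthenogenetic arrays in the limma fit of all 8 arrays, where 4.35% of all probes passed. Before adjustment 6 of the 14 had a p under 0.05, against 23% of all probes. Without both normal arrays 4 genes and 9 probes fell and 0 rose, where 17.1% of all probes fell and 33.2% passed in either direction. All 6 genes were lower, with a median of -0.53 against 0.01 over all genes tested. The groups did not overlap for 13 of the 14 probes, all lower, where 32.7% of all probes were lower without overlap.

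The comparison of the H19-labelled with the Igf2-labelled arrays, both modified parthenogenetic lines, gave similar differences. It uses the same H19-labelled arrays as the comparison with parthenogenetic ES cells, so the results are not independent. Cdkn1a stood at -0.64 (adjusted p = 0.37, and 0.00285 without the normal arrays, limma). Ccng1 stood at -0.62, Phlda3 at -0.51 and Mdm2 at -0.49, and all 3 passed in the fit without the normal arrays (adjusted p = 0.0103, 0.0110 and 0.00739, limma). Zmat3 and Trp53inp1 stood at -0.15 and -0.15 and did not pass in either fit (adjusted p = 0.401 and 0.217 without the normal arrays, limma). In this comparison the probes of Ccng1 ran from -0.62 to -0.24, and the second probe also passed without the normal arrays (adjusted p = 0.0355, limma). Over all 8 arrays 0 of 6 genes passed in limma, where 0.201% of all probes passed, and 3 of 14 probes had a p under 0.05 before adjustment, against 13.9% of all probes. Without the normal arrays 4 genes and 10 probes fell, where 12% of all probes fell and 20.6% passed in either direction. For 12 of the 14 probes the groups did not overlap, all lower, which held for 28.4% of all probes. Fibroblast markers were lower beside them for 29 of 30 genes, with a median of -0.60.

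Between Igf2-labelled and parthenogenetic arrays no member passed. Of the 6 genes, 0 passed in the fit of all 8 arrays and 0 without the normal arrays, where 0.541% and 9.7% of all probes passed. Before adjustment limma gave none of the 14 probes (0) a p under 0.05 with all arrays fitted, against 11.1% of all probes. The changes ran from -0.19 for Zmat3 (SE 0.17) to 0.10 for Trp53inp1 (SE 0.18), with Cdkn1a at -0.08, Ccng1 at -0.05, Mdm2 at 0.09 and Phlda3 at -0.14. The median was -0.06, against -0.01 over all genes. Fibroblast markers were lower here for 28 of 30 genes, and their median was -0.23. Both comparisons share the parthenogenetic arrays, so their values are given side by side only.

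Between parthenogenetic and normal ES cells the result depended on which normal array was used. With all arrays fitted 0 of 6 genes passed in limma, where 0.108% of all probes passed, and before adjustment 0 of 14 probes had a p under 0.05, against 11% of all probes. Changes ran from -0.04 for Zmat3 to 0.46 for Phlda3, with Cdkn1a at 0.44. Without normal replicate 1 the count was 5 of 6, all higher, where 40.2% of all probes passed, Cdkn1a being 0.93 higher in parthenogenetic ES cells (adjusted p = 7.54e-04, limma). Without normal replicate 2 it was 0 of 6, where 0.874% of all probes passed, and Cdkn1a stood at -0.05. Fibroblast markers were higher in parthenogenetic ES cells for 29 of 30 genes, with a median of 0.61 over both normal arrays.

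The other comparisons with normal ES cells also depended on the normal array used, the H19-labelled one in the opposite way. For Igf2-labelled against normal arrays 0 of 6 genes passed in limma, where 1.05% of all probes passed, and before adjustment 0 of 14 probes had a p under 0.05, against 15.8% of all probes. The count was 5, all higher, without normal replicate 1 and 0 without normal replicate 2, where 41% and 7.01% of all probes passed. For H19-labelled against normal arrays 0 of 6 passed in limma, where 5.03% of all probes passed, and before adjustment 1 of 14 probes had a p under 0.05, against 20.6% of all probes. That count was 6, all lower, without normal replicate 2 and 0 without normal replicate 1, where 30.6% and 30.5% of all probes passed. With both normal arrays, 27 of 30 fibroblast markers were higher in the Igf2-labelled comparison (median 0.41) and 26 of 30 were lower in the H19-labelled one (median -0.21), and their part was not tested. Each count without a normal array rests on the single one left, assumed to vary like the other groups.

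The gap between the normal arrays was the widest replicate gap of each member on its brightest probe. On the dimmest Mdm2 probe it was 0.11, against 0.24 between the H19-labelled arrays. All 14 probes were lower on normal replicate 2 than on replicate 1, 11 of them by more than 0.5, where 16.5% of all probes were lower by that much. The gap was -0.97 for Cdkn1a, -1.05 for Ccng1, -0.87 for Phlda3, -0.67 for Mdm2, -0.57 for Trp53inp1 and -0.40 for Zmat3 on the brightest probes. Between the replicates of the other groups no member probe differed by more than 0.27. Of the fibroblast markers 30 of 30 were lower on normal replicate 2, their median gap being -1.19, and their part in the gap was not tested.

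**Figure D3:**
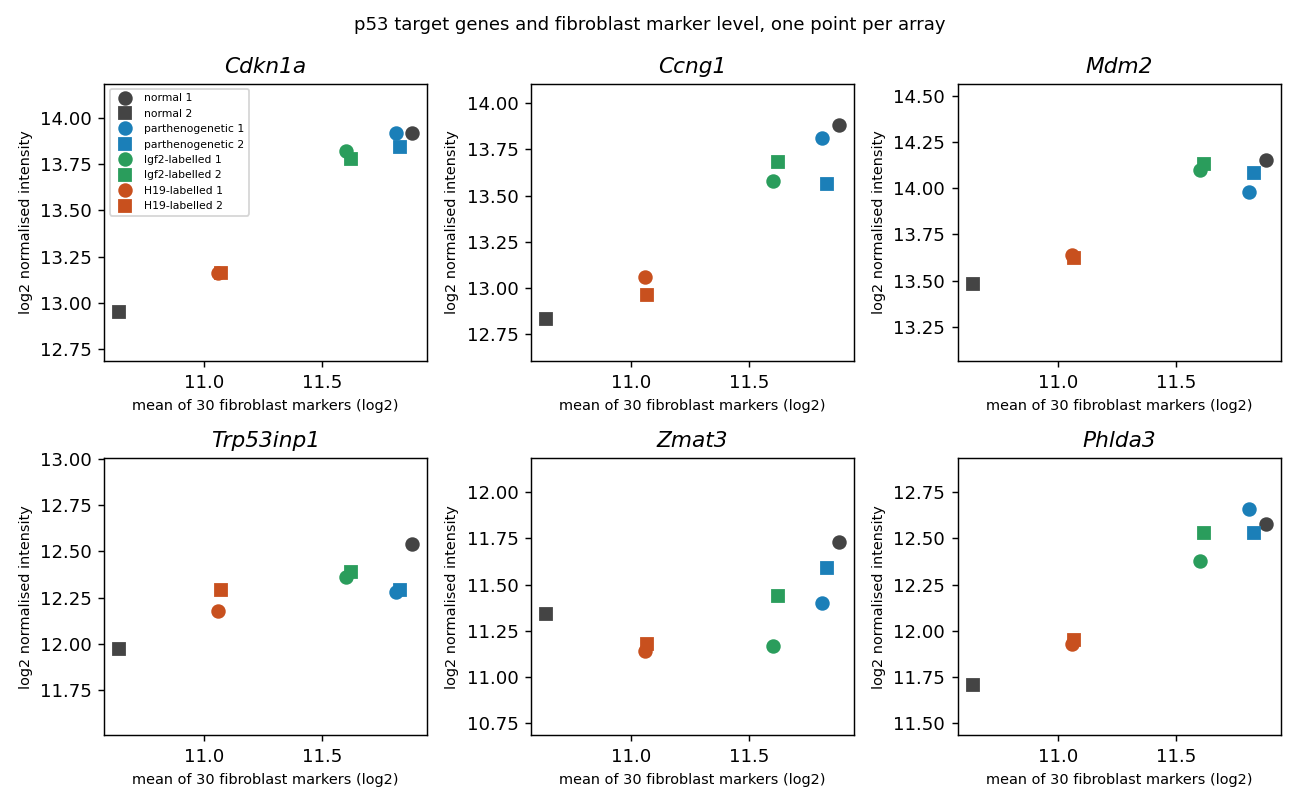
Level of each p53 target gene (y axis, brightest probe, log2 normalised intensity) against the mean level of 30 fibroblast markers on the same array (x axis, log2), 1 point per array, coloured by group. The arrays with the lowest fibroblast mean (10.64, 11.06 and 11.07) are also the lowest for Cdkn1a, Ccng1, Mdm2 and Phlda3, and the 5 others (11.60 to 11.88) are the highest.

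Set beside the fibroblast markers, the 3 lowest arrays were the same for most member probes, but the full order of arrays was not. The brightest Mdm2 probe, for example, was higher on the Igf2-labelled arrays (14.10 and 14.13) than on the parthenogenetic arrays (13.98 and 14.08). The fibroblast mean was lower on the Igf2-labelled arrays (11.60 and 11.62, against 11.81 and 11.83). For 11 of 14 probes the 3 lowest arrays were normal replicate 2 and both H19-labelled arrays, which are the 3 arrays with the lowest fibroblast level; the same held for 14.3% of all probes tested. The exceptions were Zmat3 and both probes of Trp53inp1. The arrays fall into these clusters, so no correlation is given. Normal replicate 2, which had the lowest fibroblast level, was the lowest array for 9 of 14 probes, including both probes of Trp53inp1. For 3 probes normal replicate 2 lay above both H19-labelled arrays. How often normal replicate 2 was lowest over all probes tested was not computed, so the 9 have no background share. Several probes measure the same gene, so these counts of probes are not independent.

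**Figure D4:**
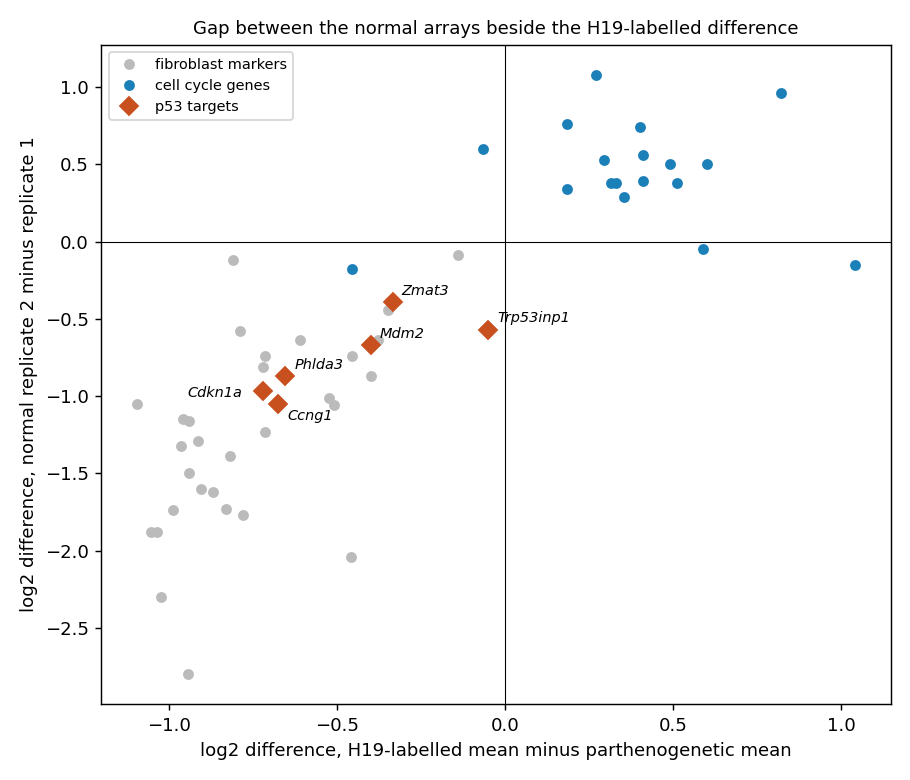
Difference between normal replicates 2 and 1 (y axis, log2) against the difference between the H19-labelled and parthenogenetic means (x axis, log2) for the 6 p53 targets (orange diamonds), 30 fibroblast markers (grey) and 18 cell cycle genes (blue), by the brightest probe of each gene. All 6 targets and all 30 fibroblast markers lie below 0 on both axes, while 16 of 18 cell cycle genes lie above 0 on the x axis.

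Genes with a profile like that of Cdkn1a were ranked over the 8 arrays by the root mean square difference of the log2 values, each gene centred on its own mean. The closest were Bag3, a co-chaperone gene, at 0.0512, Rbms1, an RNA-binding protein gene, at 0.0520, and Plin2, a lipid droplet protein gene, at 0.0550, against a median of 0.433 over 8733 genes. Bag3 was 12.75 and 11.78 for the normal pair, 12.71 and 12.70 for the parthenogenetic pair, 12.70 and 12.74 for the Igf2-labelled pair and 12.07 and 12.06 for the H19-labelled pair. Another p53 target outside the members, the epoxide hydrolase gene Ephx1, ranked 5th at 0.0559. Among the members Phlda3 and Ccng1 ranked 17 and 18 (0.0726 and 0.0746), Mdm2 ranked 255, Trp53inp1 1249 and Zmat3 1609. Of the fibroblast markers, Timp1 was nearest at rank 44 and Col1a2 farthest at rank 7125. Dcn, Bgn, Mmp2, Fstl1, Pdgfra and Vim, at ranks 69 to 189, were also nearer to Cdkn1a than Mdm2 was. Only Ccn2, Acta2, Col3a1, Lox, Cdh11 and Col1a2 were farther than Trp53inp1. The profiles were not scaled, so a wider change alone moves a gene away. Between the normal arrays Col1a2 differed by -2.81, against -0.97 for Cdkn1a.

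Other p53 target genes moved in both directions on the H19-labelled arrays. Of 31 measured, 0 passed against parthenogenetic ES cells over all 8 arrays, where 4.24% of all genes passed. Their median was -0.13 and 19 were lower. Without the normal arrays 10 fell and 4 rose, 45.2% of the list against 33.8% of all genes tested. The largest falls were those of the matrix gene Thbs1 by 1.41, the polo-like kinase gene Plk2 by 0.92, Igfbp3, an IGF-binding protein gene, by 0.82, Ephx1 by 0.81, the death receptor gene Fas by 0.76 and Dcxr by 0.74. The apoptosis gene Bbc3, which encodes PUMA, fell by 0.41. The rises were those of the growth arrest gene Gadd45a by 0.48, the stress gene Sesn1 by 0.44, the nucleotide excision repair gene Xpc by 0.39 and Plk3 by 0.28. Adjusted p-values of these calls in limma were at most 0.0416. The ribosomal protein gene Rps27l, the brightest of the list, stood at 0.08 and the nuclear body gene Pml at 0.06 without passing.

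On the Igf2-labelled arrays the same list had a median of -0.17 against parthenogenetic ES cells. The threshold was passed by 0 of its genes over all arrays, where 0.607% of all genes passed. In the fit without the normal arrays Gadd45a rose by 0.49, and Plk2, Bbc3 and Igfbp3 fell by 0.46, 0.37 and 0.34 (adjusted p at most 0.0339, limma). These 4 calls are 12.9% of the list, close to the 9.73% of all genes called in that fit. Gadd45a stood at 0.48 in the H19-labelled comparison, while Fas was 0.90 lower on the H19-labelled than on the Igf2-labelled arrays (change -0.90, adjusted p = 0.364, and 0.00182 without the normal arrays, limma).

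Regulators of p53 included its kinases, ligases and cofactors. Of 19 measured, 0 passed over all arrays for H19-labelled against parthenogenetic arrays, where 4.24% of all genes passed. With the normal arrays left out 4 rose and 2 fell, 31.6% of the list against 33.8% of all genes, so the list was called no more often than genes at large. The checkpoint kinase gene Chek1 rose by 0.92, the damage kinase gene Atm by 0.50, the deacetylase gene Sirt1 by 0.37 and Prkdc, of DNA end joining, by 0.33. The acetyltransferase gene Ep300 and Trp53bp1 fell by 0.39 and 0.46 (adjusted p of these 6 at most 0.0219, limma). Rpl5, a ribosomal protein gene whose product binds MDM2, stood at 0.05.

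Cell cycle genes that p21 represses through the DREAM complex, as known from other cells, were mostly higher on the H19-labelled arrays. Of 18 measured, 16 were higher on the H19-labelled arrays than in parthenogenetic ES cells, with a median of 0.38 against 0.01 over all genes. Over all arrays 1 rose, E2f1 by 0.59 (SE 0.11, adjusted p = 0.0352, limma). This call is 5.56% of the list, against 4.24% of all genes. Without the normal arrays 13 rose and 1 fell, 77.8% of the list against 33.8% of all genes. Mcm2, of the replicative helicase, rose by 0.82, Mcm6 by 0.60, the survivin gene Birc5 by 0.51 and the mitotic kinase gene Cdk1 by 0.49, while Mybl2, a transcription factor gene of mitotic genes, fell by 0.46 (adjusted p of these 5 at most 0.011, limma). The cyclin gene Ccna2 stood at 1.04 without passing in either fit. It was the dimmest gene of the list, at a mean of 6.97, and was detected on 6 of 8 arrays. The same list was 0.44 higher in the median on normal replicate 2 than on replicate 1, where the fibroblast markers were 1.19 lower in the median (-1.19). On the Igf2-labelled arrays 12 of the 18 were higher than in parthenogenetic ES cells, with a median of 0.10. Over all arrays 0 passed there, where 0.607% of all genes passed. Without the normal arrays 1 rose, Mcm2 by 0.59 (adjusted p = 0.00826, limma), 5.56% of the list against 9.73% of all genes. Cdkn1a stood at -0.08 in that comparison. The part of Cdkn1a or of the fibroblast level in these changes was not tested.

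ES cell markers were mostly higher than in parthenogenetic ES cells on the H19-labelled arrays, and also on the Igf2-labelled arrays. Of 18 measured, 15 were higher on the H19-labelled arrays with a median of 0.27, and Klf2 fell over all arrays by 0.57 (adjusted p = 0.0339, limma). That single call is 5.56% of the list, against 4.24% of all genes. With the normal arrays left out 9 rose, among them Fgf4 by 0.84, Tbx3 by 0.71 and Nanog by 0.50, and 1 fell, 55.6% of the list against 33.8% of all genes. In the same fit 28 of 30 fibroblast markers fell, among them the galectin gene Lgals1 by 1.10, the smooth muscle actin gene Acta2 by 1.05, Timp3 by 1.04, the lysyl oxidase gene Lox by 1.02 and the collagen gene Col1a1 by 0.99. Over all arrays 1 of 30 fibroblast markers fell (3.33%, against 4.24% of all genes), Ccn2 by 0.81 (adjusted p = 0.0145, limma). Their part in the change of the p53 targets was not tested. On the Igf2-labelled arrays 14 of 18 ES cell markers were higher than in parthenogenetic ES cells, with a median of 0.17. Over all arrays 0 passed, where 0.607% of all genes passed. Without the normal arrays 6 rose and 1 fell, 38.9% of the list against 9.73% of all genes. Between H19-labelled and Igf2-labelled arrays 10 were higher and 8 lower, with a median of 0.06. There 0 passed in either fit, where 0.195% and 21.5% of all genes passed.

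**Figure D5:**
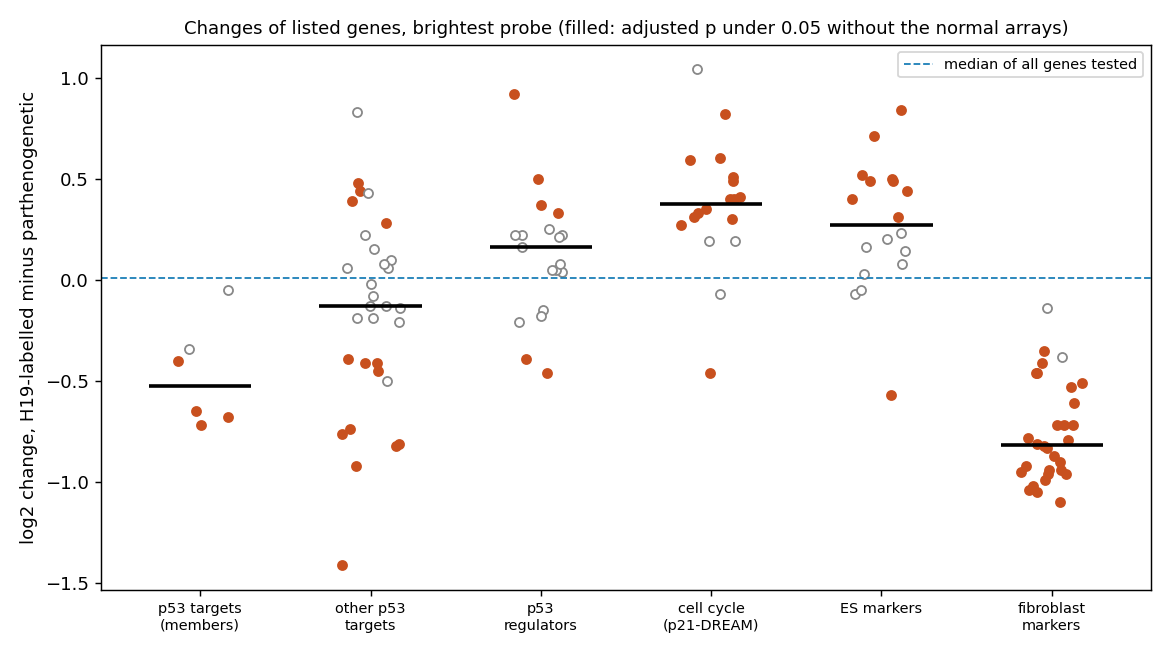
Log2 change between H19-labelled and parthenogenetic arrays for the genes of each list (y axis, 1 point per gene by its brightest probe; black lines are medians, and the dashed line is the median of all genes tested, 0.01). Filled points passed an adjusted p of 0.05 in the fit without the normal arrays: 4 of 6 p53 targets and 28 of 30 fibroblast markers fell, and 13 of 18 cell cycle genes rose.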

How the data were processed

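RNA of 8 samples was labelled with biotin for Illumina arrays, per the labels' protocols. Per the file headers, the deposited values are, for every probe, an intensity not normalized between arrays and a detection p-value. A second deposited table holds the authors' log2 values of 12690 probes, with a median of 9.55. Checked on the files, its probes are exactly those whose detection p-value was below 0.05 on at least 4 arrays. Which software made both tables is not given in the sources used here. Each column was given to its sample through the names that the header pairs, with 0 columns left over. The median intensity of an array was 172.1 to 196.7 units, with 47.1% to 49.5% of its probes detected, and the number of arrays limits the precision.

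From the intensities, limma 3.58.1 in R 4.3.3 computed normexp background correction by neqc, then an offset of 16, quantile normalization and log2 values, which understate changes of dim probes. A probe was tested (12932 in all) if detected at p below 0.05 on both members of some group. Group means were estimated by lmFit from all 8 arrays and moderated by eBayes, with 4 residual degrees of freedom and a prior worth 2.81. Without the normal arrays these were 3 and 3.29. The 6 contrasts were each adjusted by Benjamini-Hochberg over all tested probes, and every adjusted p in the text is limma's, with a threshold of 0.05. The procedure was tested on simulated data.

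Of 25697 probes, 11960 carried 1 symbol and none carried several, and 11953 of them matched the RefSeq gene table. The brightest probe, by mean over all arrays, stands for a gene. The members, lists and tests were chosen with earlier results of these data known. Genes named are the members, up to 6 per list and contrast past the threshold by size, up to 4 bright ones that did not pass, and the 3 nearest Cdkn1a. The naming of Ccna2, a dim gene, falls outside this rule. The ranks of Ephx1 and of the named fibroblast markers, and Sesn1, Xpc, Plk3, Bbc3 and Gadd45a on the H19-labelled arrays, were chosen after their values were seen.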

Additional observations from a re-analysis of the deposited data

How the results depend on the processing

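Few settings moved the number of member genes past the threshold, and those that did all reduced the weight of the normal arrays or removed one. Over all arrays the count was 0 in each of the 6 comparisons. For H19-labelled against parthenogenetic arrays it was 5 with array weights, 4 without both normal arrays and 5 in a fit of only these groups, where 35.9%, 33.2% and 31.2% of all probes passed, and 0 to 4 when 1 array was left out, the 4 being reached without either normal array, where 33.2% of all probes passed. For H19-labelled against Igf2-labelled arrays it was 4 with array weights, 4 without both normal arrays and 4 in a fit of only these groups, where 22.1%, 20.6% and 17.6% of all probes passed, and 0 to 4 when 1 array was left out, again 4 without either normal array, where 20.6% of all probes passed. With 1 array left out it was 0 to 5 for parthenogenetic against normal, 0 to 5 for Igf2-labelled against normal and 0 to 6 for H19-labelled against normal arrays, as given above. Array weights were 0.162 for each normal array and 1.73 to 1.99 for the others. Other background corrections, the authors' log2 table, other detection filters, a trended and robust prior and the mean of a gene's probes left every count at 0. Only 0.0178% to 5.71% of all probes passed under these settings. The replicate number as a block also left every count at 0, where 0.0232% to 3.84% of all probes passed. Samples with the same number deviated together only weakly (r from -0.0264 to 0.173 over the 6 pairs of groups), so the numbers were not taken as pairs.

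Directions turned mainly in comparisons with normal ES cells, in these ranges with 1 array left out. For parthenogenetic against normal, Cdkn1a, Ccng1, Mdm2 and Trp53inp1 ran from -0.05, -0.19, -0.12 and -0.26 (without normal replicate 2) to 0.93, 0.86, 0.55 and 0.31 (without replicate 1). Zmat3 ran from -0.24 without normal replicate 2 to 0.16 without replicate 1, and was 0.05 without parthenogenetic replicate 1. For Igf2-labelled against normal, Cdkn1a, Ccng1, Mdm2, Trp53inp1 and Phlda3 ran from -0.12, -0.25, -0.03, -0.16 and -0.12 (without normal replicate 2) to 0.85, 0.81, 0.64, 0.41 and 0.75 (without replicate 1). For H19-labelled against normal, the same genes ran from -0.77, -0.87, -0.52, -0.31 and -0.63 (without normal replicate 2) to 0.21, 0.18, 0.15, 0.26 and 0.24 (without replicate 1), and Trp53inp1 was 0.03 without H19-labelled replicate 1. For Igf2-labelled against parthenogenetic arrays Ccng1 ran from -0.17 without parthenogenetic replicate 2 to 0.07 without replicate 1, and was 0.07 by the mean of its probes. None of these values with a turned sign passed, and the cause was not tested. For H19-labelled against parthenogenetic arrays Cdkn1a kept a change of -0.76 to -0.68 over 19 alternatives, with an adjusted p of 0.00105 to 0.51, and Ccng1 ran from -0.80 to -0.32, the smallest by the mean of its probes.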
